A study of Rattus norvegicus with 4 samples.

Results

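The elastic fibre and crosslinking genes of the arterial wall are described here in aortic smooth muscle cells from Sprague-Dawley rats, kept in culture and given an inflammatory cytokine or a growth factor. The 10 genes, of 14218 named on the array, were set by symbol: the fibre core gene Eln, the microfibril and scaffold genes Fbn1, Fbln1, Fbln2, Fbln5, Emilin1 and Mfap4, and the crosslinking enzymes Lox, Loxl1 and Loxl2. They were read by 15 probe sets, each annotated to exactly 1 of these symbols. Probe sets numbered 2 each for Eln, Fbn1, Fbln1, Lox and Loxl2 and 1 each for the other 5 genes.

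In the artery wall, smooth muscle cells secrete tropoelastin, the soluble product of Eln, which is laid onto a scaffold of fibrillin microfibrils and joined into rubber-like lamellae. Lysyl oxidases, copper enzymes that act on lysine side chains, make the covalent crosslinks of elastin and collagen. Fibulins, EMILINs and other microfibril-associated glycoproteins bind elastin, fibrillin or lysyl oxidases and help to place elastin on the scaffold.

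The cells were cultured with serum for 3 days and without serum for the next 3, and were then exposed for 24 h. One culture received interleukin-1b (IL-1b) at 2.5 ng/mL, and its vehicle culture received 0.1% bovine serum albumin (BSA) with 10 mM acetic acid. Another received PDGF-DD, a dimeric member of the platelet-derived growth factor family, at 30 ng/mL, and its vehicle culture received 0.01% BSA. Total RNA of each of the 4 cultures went onto 1 Affymetrix rat array, so each group is 1 sample, no difference below has a replicate check or a p-value, and the number of arrays limits the precision. Values are linear intensities after the arrays were brought to a common trimmed mean; a log2 ratio is the first array named over the second, and a gene is counted as higher or lower when it differed by at least 2-fold. Intensities of different probe sets are on different scales and are compared only across arrays.

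The arrays had between 58.3% and 61.5% of their probe sets above the floor, an intensity of 28.1 under which values were not told apart. Of 8 smooth muscle markers, 7 were above the floor on all 4 arrays, and Des only on the IL-1b vehicle array. The endothelial markers Pecam1, Kdr, Vwf and Cldn5 and the leukocyte markers Ptprc, Cd68, Csf1r and Itgam were at the floor on all 4 arrays, while the lysozyme gene Lyz2 had 1305 with IL-1b and was at the floor on the other 3. The remaining such markers on the array, Tek and Aif1, reached at most 40.02 and 38.2. The vehicle arrays differed from each other: of 10389 genes measured, 5.79% were higher with the PDGF-DD vehicle than with the IL-1b vehicle and 4.67% were lower. All 6 cell division genes listed were higher with the PDGF-DD vehicle, with a median log2 ratio of 2.58. With PDGF-DD 3 of these 6 were higher than with its own vehicle and the median was 0.96, and with IL-1b 0 reached 2-fold and the median was -0.22. The part of cell division in the values below was not tested.

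With IL-1b, Eln, Fbln5 and Mfap4 were lower than with its vehicle, Fbln1 was higher, and Fbn1, Fbln2, Emilin1 and all 3 lysyl oxidase genes differed by less than 2-fold. With PDGF-DD, Eln, Fbln5 and Mfap4 were lower again, Emilin1 and Fbln1 were lower as well, and no gene of the 10 was higher. By their brightest probe sets, Eln, Fbln5 and Mfap4 with IL-1b were within 2-fold of the PDGF-DD vehicle array. Some of the 10 thus varied widely over the arrays and others little. By the brightest probe set of each gene, the highest array exceeded the lowest 18.5-fold for Eln, 14.0-fold for Fbln1, 8.71-fold for Mfap4 and 6.53-fold for Fbln5. The same range was 2.86-fold for Emilin1, 1.96-fold for Lox and 1.38-fold to 1.53-fold for Fbn1, Fbln2, Loxl1 and Loxl2. By the second probe sets it was 23.5-fold for Eln, at least 3.28-fold for Fbln1, 2.26-fold for Lox, 1.74-fold for Fbn1 and 1.47-fold for Loxl2.

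Counted by the brightest probe set of each gene, 3 of the 10 were lower with IL-1b, where 5.42% of 10679 genes measured were lower, and 1 was higher, where 6.15% were. With PDGF-DD, 5 of the 10 were lower, where 4.67% of 10142 genes measured were lower, and 0 were higher, where 4.24% were. That count of 5 was 4 with deposited scaling, with quantile normalization and with the floor at the 60th percentile of all values. The median log2 ratio of the 10 genes was -0.19 with IL-1b and -0.9997 with PDGF-DD, beside medians over all measured genes of 0.02 and 0.01. The log2 ratio was below 0 for 5 of the 10 with IL-1b and for 10 of the 10 with PDGF-DD. Over all measured genes it was below 0 for 5070 of 10679 with IL-1b and for 4967 of 10142 with PDGF-DD. Of 8 reference genes on the array, 4 were below 0 with IL-1b and 6 with PDGF-DD, with medians of 0.004 and -0.15, and 0 reached 2-fold in either comparison. Those furthest from 0 were Hprt1 (0.93) and Gapdh (0.38) with IL-1b, and B2m (-0.53) and Tbp (0.41) with PDGF-DD. Of the vehicle arrays, that of PDGF-DD had lower Eln, Fbln5 and Mfap4 and higher Fbln1 than that of IL-1b. These were 3 and 1 of the 10, where 4.67% of 10389 genes measured were lower and 5.79% were higher. The median was 0.19 beside -0.05 over all measured genes.

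**Figure D1:**
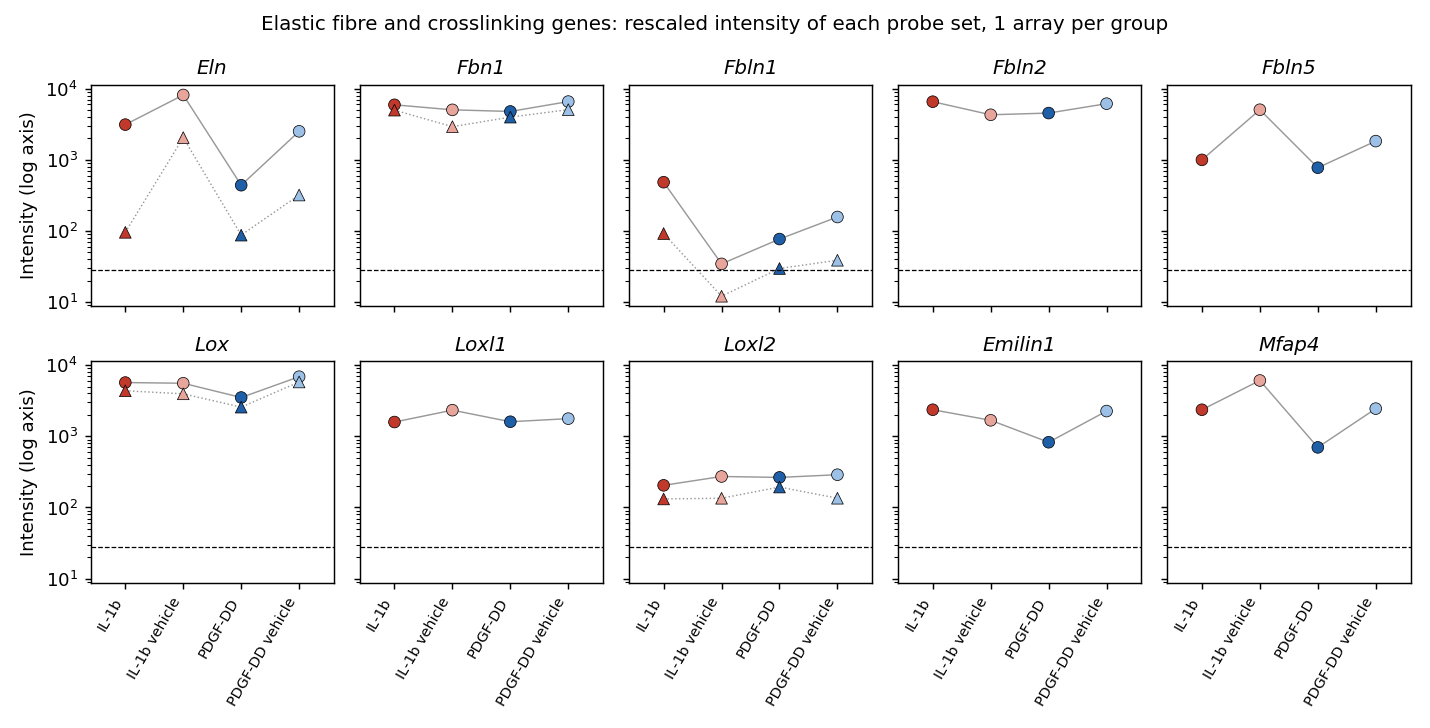
Rescaled intensity (log axis) of every probe set of the 10 genes on the IL-1b, IL-1b vehicle, PDGF-DD and PDGF-DD vehicle arrays, 1 array per point. Circles joined by solid lines are the brightest probe set of a gene, triangles joined by dotted lines its other probe set, and the dashed line is the floor of 28.1; Eln, Fbln5 and Mfap4 are highest on the IL-1b vehicle array and lowest on the PDGF-DD array by these brightest sets, while Fbn1, Fbln2, Loxl1 and Loxl2 are nearly level.

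Eln encodes tropoelastin, the monomer of the elastic core. Its brighter probe set had an intensity of 3121 with IL-1b and 8140 with its vehicle, and of 439 with PDGF-DD and 2513 with its vehicle. The level with IL-1b thus lay below its own vehicle but above the PDGF-DD vehicle. The log2 ratio was -1.38 for IL-1b, a 2.61-fold lower level, and -2.52 for PDGF-DD, a 5.72-fold lower level.

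By this probe set the vehicle arrays differed by more than the IL-1b pair did. Eln was 3.24-fold lower with the PDGF-DD vehicle than with the IL-1b vehicle (log2 ratio -1.70). Set against the PDGF-DD vehicle, IL-1b had a log2 ratio of 0.31, so the direction by this probe set depended on the vehicle. Set against the IL-1b vehicle, that of PDGF-DD was -4.21, so PDGF-DD was lower than either vehicle.

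The second probe set of Eln gave another size for IL-1b. It had 95.7 with IL-1b and 2051 with its vehicle, a 21.4-fold lower level (log2 ratio -4.42), and 87.4 with PDGF-DD and 320 with its vehicle, 3.66-fold lower (log2 ratio -1.87). By this probe set the IL-1b and PDGF-DD arrays were alike and both were below both vehicles, with a log2 ratio of -1.74 for IL-1b against the PDGF-DD vehicle. Both sets had PDGF-DD lower than its vehicle by at least 3.66-fold. The 3'/5' intensity ratio of the beta-actin control, a sign of RNA degradation or incomplete labelling, was 2.05 with IL-1b and 1.58 with its vehicle, and 1.37 with PDGF-DD and 1.26 with its vehicle. That of the GAPDH control was 1.27 with IL-1b and 1.22 with its vehicle, and 1.07 with PDGF-DD and 1.11 with its vehicle. The part of RNA quality in the gap between the probe sets was not tested. With the median of both Eln probe sets, the log2 ratio of Eln was -2.90 with IL-1b.

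Fbln5 encodes fibulin-5, which binds tropoelastin and lysyl oxidase-like 1 and which mice need to assemble elastic fibres. Its intensity was 998 with IL-1b and 5053 with its vehicle, and 774 with PDGF-DD and 1831 with its vehicle. It was highest by far on the IL-1b vehicle array, and both treated arrays lay below both vehicle arrays. The level was 5.06-fold lower with IL-1b (log2 ratio -2.34) and 2.37-fold lower with PDGF-DD (log2 ratio -1.24), and 2.76-fold lower with the PDGF-DD vehicle than with the IL-1b vehicle. IL-1b over the PDGF-DD vehicle gave a log2 ratio of -0.88, which is less than 2-fold.

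Mfap4, a microfibril-associated glycoprotein that binds elastin and fibrillin, was likewise highest on the IL-1b vehicle array and lowest on the PDGF-DD array. It had 2363 with IL-1b and 6093 with its vehicle, and 699 with PDGF-DD and 2451 with its vehicle. The IL-1b array and the PDGF-DD vehicle array were close to each other, with a log2 ratio of -0.05. The level was 2.58-fold lower with IL-1b and 3.50-fold lower with PDGF-DD, and it was 2.49-fold lower with the PDGF-DD vehicle than with the IL-1b vehicle.

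Smooth muscle markers varied over the same arrays. Their summed intensity was 8617 with IL-1b and 28035 with its vehicle, and 4704 with PDGF-DD and 20195 with its vehicle. With IL-1b 7 of 8 measured markers were lower, where 5.42% of all measured genes were. With PDGF-DD 6 of 7 were lower, where 4.67% were. Over the PDGF-DD vehicle, 4 of 7 were lower with IL-1b, where 4.97% were. Lmod1, an actin nucleator, had a log2 ratio of -3.06 and the contractile coactivator Myocd -2.52 with IL-1b. Over the PDGF-DD vehicle these were -2.01 and -0.88. Myosin heavy chain Myh11 had -3.29 with PDGF-DD, where its intensity of 29.5 was barely above the floor of 28.1. Calponin, Cnn1, had an intensity of 642 with PDGF-DD and 5134 with its vehicle. Whether Eln, Fbln5 and Mfap4 were lower through the same state of the cells was not tested, and in a whole culture fewer cells that express a gene and less RNA per cell cannot be told apart.

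Fbln1 encodes fibulin-1, a glycoprotein found within the elastin core and in basement membranes. Its brighter probe set had 484 with IL-1b and 34.5 with its vehicle, and 77.0 with PDGF-DD and 157 with its vehicle. The value on the IL-1b vehicle array was just above the floor, and the IL-1b array exceeded each of the others. The level was 14.0-fold higher with IL-1b (log2 ratio 3.81) and 2.04-fold lower with PDGF-DD (log2 ratio -1.03). The size with IL-1b depended on the processing: its log2 ratio was 2.20 with the floor at the 60th percentile of all values and 2.76 with the median of both probe sets, still above 2-fold.

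Against the PDGF-DD vehicle, Fbln1 with IL-1b had a log2 ratio of 1.62, still a higher level. The call for PDGF-DD was less firm: the second probe set had a log2 ratio of -0.38, and against the IL-1b vehicle the brighter one turned to 1.16. With the deposited scaling and with quantile normalization the brighter set had -0.94 and -0.98 against its own vehicle, under 2-fold. That second probe set had 92.1 with IL-1b and 12.1 with its vehicle, and 29.7 with PDGF-DD and 38.8 with its vehicle. It was under the floor on the IL-1b vehicle array, so its fold with IL-1b is at least 3.28.

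Some fibroblast markers stood higher with IL-1b. Of 5 measured, Dpt, Pdgfra and Lum were higher and none was lower, where 6.15% of all measured genes were higher. Pi16 and Dcn stayed under 2-fold, at log2 ratios of 0.06 and 0.35. Dpt had 1288 with IL-1b and was at the floor with its vehicle, a level at least 45.9-fold higher. Over the PDGF-DD vehicle, Dpt, Lum and Dcn were higher with IL-1b, and Pdgfra had a log2 ratio of 0.73, under 2-fold. The summed intensity of this list was 7873 with IL-1b and 2327 with its vehicle, and 707 with PDGF-DD and 1409 with its vehicle. Lum made up most of this sum, at 6041 with IL-1b and 2067 with its vehicle, and 372 with PDGF-DD and 1022 with its vehicle. With PDGF-DD, Lum was lower (log2 ratio -1.46), the only one of 4 measured fibroblast markers to reach 2-fold. Clec3b was at the floor on all 4 arrays. The part of such cells or of such a state in the Fbln1 values was not tested.

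Fbn1 and Fbln2 were nearly level. Fbn1 encodes fibrillin-1, the main microfibril protein, and its brighter probe set had 5926 with IL-1b and 5035 with its vehicle, and 4780 with PDGF-DD and 6578 with its vehicle. Its log2 ratios were 0.24 and -0.46 for the factors, and 0.77 and -0.35 by its second probe set. Fbln2 encodes fibulin-2, which binds tropoelastin and fibrillin-1, and had 6555 with IL-1b and 4292 with its vehicle, and 4536 with PDGF-DD and 6146 with its vehicle. Its log2 ratios were 0.61 and -0.44, neither of which reached 2-fold.

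Emilin1, a glycoprotein at the interface of elastin and microfibrils, was lower with PDGF-DD. Its intensity was 2364 with IL-1b and 1681 with its vehicle, and 826 with PDGF-DD and 2265 with its vehicle. The PDGF-DD array was the lowest and the other 3 lay within 1.41-fold of each other. The level with PDGF-DD was 2.74-fold below its vehicle (log2 ratio -1.46) and 2.04-fold below the IL-1b vehicle. With IL-1b the log2 ratio was 0.49 over its own vehicle and 0.06 over the PDGF-DD vehicle.

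Among the crosslinking enzymes, Lox, which encodes lysyl oxidase itself, was lower with PDGF-DD by an amount close to 2-fold. Its brighter probe set had 5698 with IL-1b and 5572 with its vehicle, and 3513 with PDGF-DD and 6885 with its vehicle. The second had 4368 with IL-1b and 3957 with its vehicle, and 2572 with PDGF-DD and 5808 with its vehicle. With PDGF-DD the log2 ratio was -0.97 by the first and -1.17 by the second, which puts them on either side of 2-fold; against the IL-1b vehicle they were -0.67 and -0.62. With IL-1b they were 0.03 and 0.14.

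Loxl1, the lysyl oxidase-like enzyme tied to elastin, had 1588 with IL-1b and 2332 with its vehicle, and 1604 with PDGF-DD and 1772 with its vehicle. Its log2 ratios, -0.55 and -0.14, were both less than 2-fold. Loxl2, which crosslinks type IV collagen, had 205 with IL-1b and 273 with its vehicle, and 265 with PDGF-DD and 289 with its vehicle, by its brighter probe set. Its log2 ratios were -0.41 and -0.13, and those of its second probe set were -0.03 and 0.52, so the sign for PDGF-DD differed between the sets. No lysyl oxidase gene therefore differed by as much as Eln did in either comparison.

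**Figure D2:**
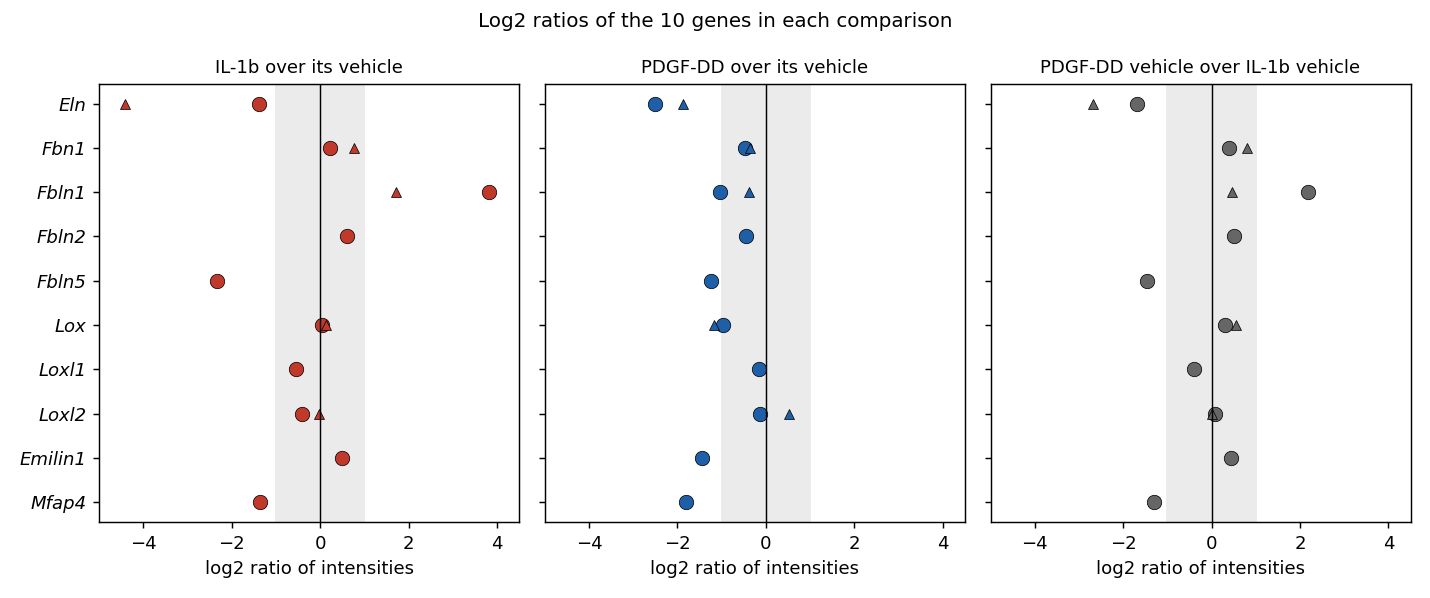
Log2 ratio of intensities for each of the 10 genes, in the comparison of IL-1b with its vehicle, of PDGF-DD with its vehicle and of the PDGF-DD vehicle with the IL-1b vehicle. Circles are the brightest probe set of a gene and triangles the other one, and the grey band marks differences under 2-fold; Eln, Fbln5 and Mfap4 lie left of the band in all 3 comparisons, and the brighter Fbln1 set lies right of it for IL-1b and for the vehicles.

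The factors were also set against each other through their own vehicles, by subtracting each gene's PDGF-DD log2 ratio from its IL-1b log2 ratio. With 1 array per group this difference was not tested. It was 4.84 for Fbln1, 1.95 for Emilin1, 1.05 for Fbln2, 1.00 for Lox and 0.70 for Fbn1. It was 0.44 for Mfap4, and below 0 for Fbln5, Loxl1 and Loxl2, at -1.10, -0.41 and -0.29. For Eln it was 1.13 by the brighter probe set and -2.55 by the other, so these arrays do not settle under which factor Eln was further below its vehicle.

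Read against the other factor's vehicle array, 0 of the 10 were lower with IL-1b (4.97% of 10522 genes were) and Fbln1 alone was higher (5.44% were). With PDGF-DD, Eln, Fbln5, Mfap4 and Emilin1 were lower than with the IL-1b vehicle (10.3% of 10389 genes were), at log2 ratios of -4.21, -2.71, -3.12 and -1.03, and Fbln1 alone was higher (9.64% were). Eln, Fbln5, Mfap4 and Emilin1 were thus at least 2-fold lower with PDGF-DD against both vehicles, and Eln, Fbln5 and Mfap4 at least 2-fold lower with IL-1b against its own vehicle only, when each gene is read by its brightest probe set. These comparisons share their vehicle arrays with the ones above and are not independent of them.

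Other genes of the same fibres gave a mixed picture. Of 20 further elastic fibre and microfibril genes on the array, 7 were at the floor on all 4 arrays: Fbn2, Efemp1, Mfap2, Emilin3, Mmrn1, Mmrn2 and Vtn. Of 13 measured with IL-1b, Ltbp2 and Emilin2 were higher and Adamtsl4 and Mfap5 lower, with a list median of 0.06. Of 12 measured with PDGF-DD, Adamtsl4, Mfap5 and Ltbp3 were lower and none was higher, with a list median of -0.45. Over all measured genes, 6.15% were higher and 5.42% lower with IL-1b, and 4.24% higher and 4.67% lower with PDGF-DD. The same shares apply beside the counts of the lists below.

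Adamtsl4, which encodes a fibrillin-binding ADAMTS-like protein, had 321 with IL-1b and 1086 with its vehicle, and 143 with PDGF-DD and 481 with its vehicle. It was thus lower with each factor, 3.38-fold and 3.37-fold, and also 2.26-fold lower with the PDGF-DD vehicle than with the IL-1b vehicle. Mfap5, a microfibril-associated glycoprotein, had 46.7 with IL-1b and 109 with its vehicle, and was at the floor with PDGF-DD and 93.2 with its vehicle, at least 3.32-fold lower. Ltbp2, a latent TGF-beta binding protein of the fibrillin superfamily, went the other way with IL-1b, at 3990 against 1171 with its vehicle, and had 1506 with PDGF-DD and 2911 with its vehicle. All 4 of these IL-1b differences were under 2-fold when read over the PDGF-DD vehicle, with log2 ratios of -0.58 for Adamtsl4, -0.996 for Mfap5, 0.46 for Ltbp2 and 0.04 for Emilin2.

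Crosslinking genes outside the lysyl oxidases named above were mostly level. Of 13 measured with IL-1b, Tgm1 alone was higher (6.15% of all measured genes were) and 0 were lower (5.42% were), with a median of 0.18. Of 12 measured with PDGF-DD, Tgm2 alone was lower (4.67% were) and 0 were higher (4.24% were), with a median of -0.17. Tgm2, a transglutaminase that joins glutamine and lysine side chains, had 756 with IL-1b and 452 with its vehicle, and 65.2 with PDGF-DD and 355 with its vehicle, 5.44-fold lower. Tgm1, another transglutaminase, had 226 with IL-1b and was at the floor on the other 3 arrays, at least 8.06-fold higher. Plod2, a lysyl hydroxylase of collagen crosslinks, had log2 ratios of -0.39 with IL-1b and -0.60 with PDGF-DD.

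Proteases that cut elastin, and its receptors, were read in the same way. Mmp2, a gelatinase that also cleaves elastin, had 2493 with IL-1b and 621 with its vehicle, and 488 with PDGF-DD and 610 with its vehicle, 4.01-fold higher with IL-1b. Ctsk, cathepsin K, was 2.52-fold higher with IL-1b, but its log2 ratio was 0.15 against the PDGF-DD vehicle. With PDGF-DD 0 of 4 measured proteases reached 2-fold, and Ctsl had the log2 ratio furthest from 0, at 0.50. Macrophage elastase Mmp12 was at the floor on all 4 arrays.

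Itga8, the integrin alpha-8 subunit of smooth muscle, had 199 with IL-1b and 631 with its vehicle, and 108 with PDGF-DD and 829 with its vehicle. It was 3.18-fold lower with IL-1b and 7.67-fold lower with PDGF-DD, and it was lower than either vehicle with each factor. Itgb3, the integrin beta-3 subunit, had 109 with IL-1b and 256 with its vehicle, 2.35-fold lower. It was near the floor with PDGF-DD and at the floor with the PDGF-DD vehicle. Over the PDGF-DD vehicle, Itgb3 with IL-1b was at least 3.88-fold higher, so its direction depended on the vehicle. Of 10 receptor genes, no other differed by 2-fold between a factor and its own vehicle. Ctsa, a subunit of the elastin receptor complex, had a log2 ratio of -0.76 with PDGF-DD.

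**Figure D3:**
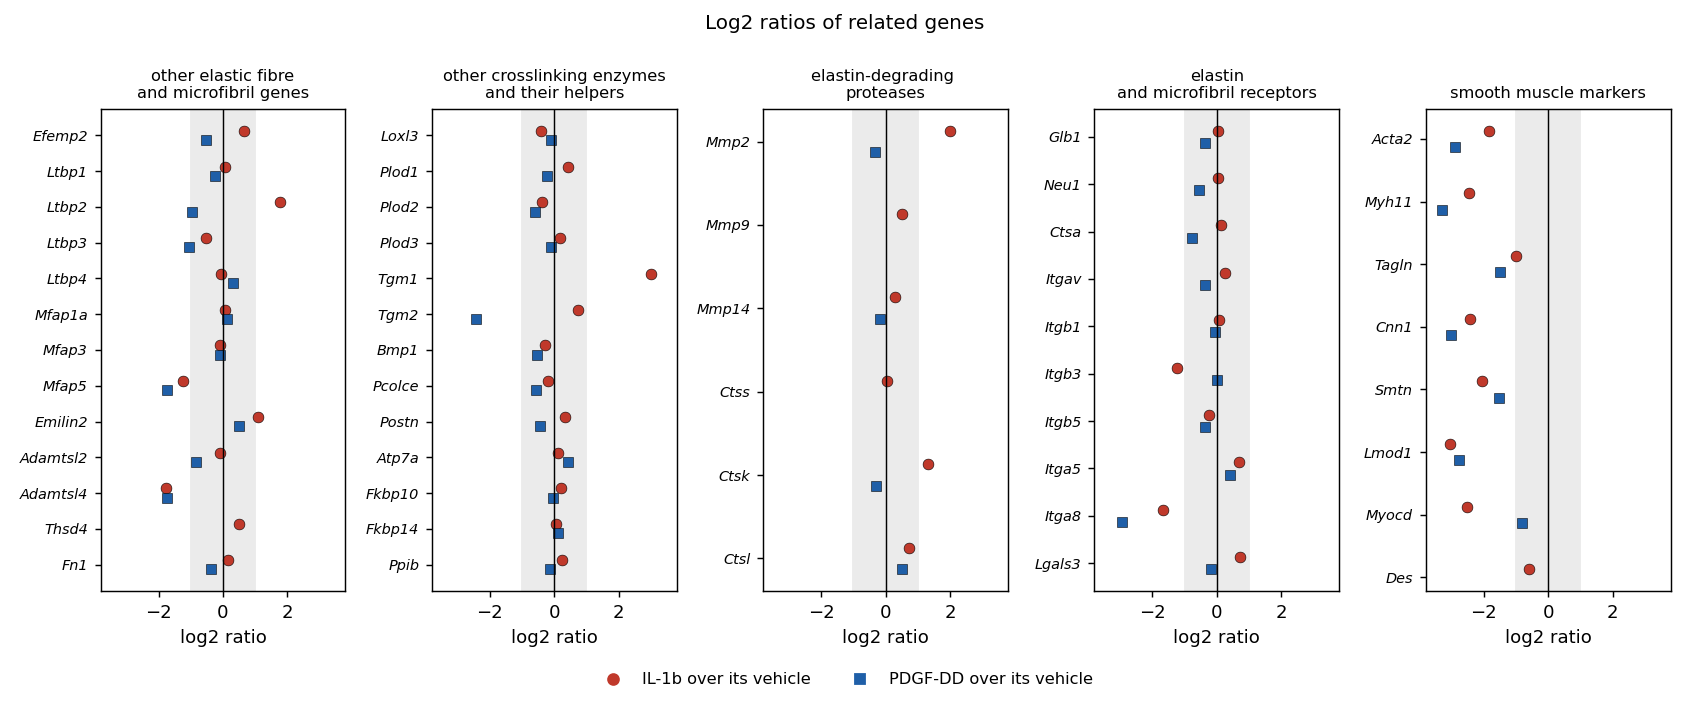
Log2 ratio of intensities of related genes with IL-1b (circles) and with PDGF-DD (squares), each over its own vehicle, in 5 lists; 1 array per group, with the grey band marking differences under 2-fold. Genes at the floor in a pair are left out for it, and ratios with 1 array at the floor (Tgm1, Mmp9, Ctss and Des with IL-1b, Mfap5 and Itgb3 with PDGF-DD) are bounds; Adamtsl4, Mfap5, Itga8 and most smooth muscle markers lie left of the band for both factors.

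Over all 9164 other genes above the floor on all 4 arrays, the 5 whose centred log2 profile lay nearest to that of the brighter Eln probe set were Aldh1a2, Fmod, Spry1, Rnf122 and Pcsk5, at distances of 0.42, 0.55, 0.61, 0.72 and 0.74 on the log2 scale. Fmod, the collagen-binding proteoglycan fibromodulin, had 4302 with IL-1b and 7130 with its vehicle, and 417 with PDGF-DD and 3190 with its vehicle. On the PDGF-DD array Aldh1a2 had 28.2, barely above the floor of 28.1, and Spry1 had 35.5. Those nearest to Lox were Pdlim1, Msi2, Pspn, Gal3st4 and Nupr1, at distances of 0.02 to 0.11. Pspn was also near the floor on the PDGF-DD array, at 33.1. These distances rest on 4 single arrays and are a description only.

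Promoter sequence was at hand for 4 of the 10 genes, Fbn1, Fbln2, Fbln5 and Loxl1, from RefSeq on build GRCr8. Fbln5 and Loxl1 are shown because only they had a long enough stretch before the outermost annotated start of the gene. Fbln5 was lower with both factors and Loxl1 reached 2-fold with neither, but the genes were not picked for that contrast. Each run is the genomic stretch before the outermost annotated start of the gene, read toward the gene on the minus strand; 109 bases for Fbln5 at chr6:126742848-126742956 and 250 bases for Loxl1 at chr8:67612225-67612474. Capitals mark a GC box, read here from its complementary strand.
Fbln5: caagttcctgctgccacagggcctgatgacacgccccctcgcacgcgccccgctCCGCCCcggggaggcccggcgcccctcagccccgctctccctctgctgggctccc
Loxl1: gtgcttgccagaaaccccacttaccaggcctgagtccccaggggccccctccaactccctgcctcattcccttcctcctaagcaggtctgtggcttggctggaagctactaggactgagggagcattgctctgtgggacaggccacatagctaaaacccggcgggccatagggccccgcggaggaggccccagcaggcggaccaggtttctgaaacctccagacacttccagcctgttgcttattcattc

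In windows of 300 bases around the table's start sites, both strands were searched for the GC box GGGCGG, the AP-1 motif TGANTCA, the NF-kappaB motif GGNNTTNCC and the CArG box. The GC box was found 3 times for Fbln2, once for Fbln5 and not for Fbn1 or Loxl1, and 33.1% of 33469 rat promoters held it. The other motifs, held by 7.33%, 16% and 1.64% of promoters, had no match in the 4 windows, so no match of another motif overlapped a GC box there. Overlap among the 3 GC boxes of Fbln2 was not checked. The lack of a match says only that these letters are not in the windows.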

How the data were processed

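Gene expression was measured in 4 cultures on 1 Affymetrix rat array each. Per the submitters' processing notes the authors used MAS5, and the deposited table holds intensities on a linear scale. Which MAS5 version and target intensity were used is not given in the sources used here. The 4 deposited columns had the same median intensity, 53.3. Detection calls were not used here.

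Each array was rescaled to a common mean after trimming 2% at either end (factors of 0.951 to 1.03), and values under the 40th percentile of all values, 28.1, were set to that floor. Of 31099 probe sets, 20832 had 1 gene symbol in a platform annotation of 2016, 436 had several and 9831 were not listed, and only the first kind names a gene. All 10 genes matched the RefSeq table by identifier. The probe set of highest mean log2 intensity stood for its gene, and every probe set of the 10 genes is also given. A gene was measured in a comparison when above the floor on at least 1 of its arrays, and counted when at least 2-fold apart; no test was possible with 1 array per group. A fold against the floor is a lower bound.

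The 10 genes and the lists beside them were chosen with earlier results of these data known. Of each other list, the rule named the members with the 2 largest absolute log2 ratios per factor, and for Eln and Lox the 5 genes nearest in profile. Emilin2, Ltbp3, Des, Mmp12, Mmp9, Ctss and the genes listed at the floor fall outside it and were named after their values were seen, as were the promoter motifs. The cell division genes that the rule covers were given by counts and medians only. Alternatives were the scaling, the floor, the probe set rule and the vehicle. Python 3.11.15, numpy 2.4.6 and pandas 2.3.3 were used.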

Additional observations from a re-analysis of the deposited data

Results flagged for a closer look

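For 2 of the genes the factors lay in opposite directions from their own vehicles, with at least 1 of them 2-fold or more; with 1 array per group these differences were not tested. The IL-1b log2 ratio exceeded the PDGF-DD log2 ratio by 4.84 for Fbln1, from 3.81 with IL-1b and -1.03 with PDGF-DD. The excess was 1.95 for Emilin1, from 0.49 with IL-1b and -1.46 with PDGF-DD. Over the PDGF-DD vehicle, Emilin1 with IL-1b had a log2 ratio of 0.06. By their brightest probe sets Fbn1, Fbln2 and Lox also had opposite signs, with both ratios under 2-fold.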

How the results depend on the processing

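With 1 array per group, it was not possible to leave out a replicate, to run a test or to make a paired analysis. The processing settings were deposited scaling, quantile normalization, floors at the 20th and 60th percentiles and the median of a gene's probe sets. Over these, 144 of 150 log2 ratios of the 10 genes kept their side of 2-fold. Many of the 150 could not move, so this total overstates how far the settings tested them. The brightest probe sets of the 10 genes were above the main floor on every array, so the lower floor left all 30 ratios unchanged. The higher floor altered only ratios of Fbln1. The median of probe sets could not change the 5 genes with 1 probe set. Of the 150, 1 turned its sign, that of Loxl2 with PDGF-DD under the median of probe sets (0.20). Fbln1 with PDGF-DD lost 2-fold under deposited scaling (-0.94), quantile normalization (-0.98), the higher floor (-0.58) and the median of probe sets (-0.71), and Lox with PDGF-DD reached it under the median (-1.07). Genes lower with PDGF-DD thus numbered 4 under deposited scaling, quantile normalization and the higher floor. They numbered 5 under the median, with Lox in place of Fbln1. With the higher floor, Fbln1 between the vehicles fell under 2-fold (0.58), so that 0 of the 10 were higher there. Fbln1 with IL-1b had 2.20 with the higher floor and 2.76 under the median, Eln with IL-1b -2.90 under the median, and Fbln1 between the vehicles 1.33 under the median. Against the other factor's vehicle, 0 of the 10 were lower with IL-1b: Eln turned to 0.31, Fbln5 had -0.88 and Mfap4 -0.05. With PDGF-DD 1 was then higher, Fbln1, which turned to 1.16. The causes were not tested, apart from the higher floor, which compresses ratios of dim probe sets by its construction. Over all genes, IL-1b had 657 higher and 579 lower, against 1244 and 1049 with the lower floor and 410 and 383 with the higher; PDGF-DD had 430 higher and 474 lower, against 731 and 919, and 300 and 306, and 1002 and 1074 against the IL-1b vehicle. The PDGF-DD vehicle had 602 higher and 485 lower than the IL-1b vehicle, against 961 and 1065, and 356 and 277. The number of genes measured changed with the floor as well. For IL-1b it was 10679, against 13005 with the lower floor and 8285 with the higher. For PDGF-DD it was 10142, against 12690 and 8166, and 10389 against the IL-1b vehicle. Between the vehicles it was 10389, against 12883 and 8267.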
